A study of Mus musculus with 6 samples.

Results

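The genes described here are 10 transcription factors of the B lineage, namely Pax5, Ebf1, Tcf3, Ikzf1, Ikzf3, Irf4, Irf8, Spib, Bach2 and Foxp1, read on gene expression microarrays of a mouse pre-B cell line. All non-control probes that the array design lists under these names were taken, which gave 19 probes of the 10 genes out of 55681 probes under 24105 gene names, and 18 of the 19 were bright enough to be tested. The cells were the line 1676, grown out from bone marrow of SLP-65-/- LAT-/- mice, so the controls also lack both of these adaptor proteins of receptor signalling. The 3 groups, each kept in the growth factor IL-7 and selected for its retroviral vector, were cells with an empty control vector, cells overexpressing miR-26a, and cells with a miR-26 sponge, a transcript full of miR-26 sites that titrates the microRNA. The sample labels name the overexpressed construct as human, hsa-miR-26a-2. Each group has 2 arrays, 1 from each of 2 experiments with independently generated cells, and the control of the sponge was the empty vector rather than a scrambled sponge. The comparison asks whether raising or sequestering miR-26 in cycling pre-B cells alters the factors that specify and mature B cells.

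B cell identity is set up in steps. Tcf3 (E2A) and Ebf1 open the programme in lymphoid progenitors and Pax5 then commits the cells to it, while Ikzf1 (Ikaros) and Ikzf3 (Aiolos), together with Irf4 and Irf8, take large cycling pre-B cells out of the cell cycle and toward light chain rearrangement. Spib, an ETS factor, binds DNA jointly with Irf4 or Irf8, Bach2 is a repressor that acts at the pre-B cell checkpoint and holds off the plasma cell programme, and the forkhead factor Foxp1 is needed for V(D)J recombination in early B cells. A microRNA lowers mRNAs that pair with its seed, bases 2 to 8 of the mature strand, shown in capitals for the 2 mature sequences of the mouse family that the sponge is built against (RefSeq, GRCm38.p6).
miR-26a-5p: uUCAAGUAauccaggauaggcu
miR-26b-5p: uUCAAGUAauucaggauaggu
The seed is the same in both. Its complement as a site in an mRNA reads TACTTGA, and the complement of bases 1 to 7 reads ACTTGAA, words that overlap. On the probe strand neither word occurred in any of the 19 probes, against 0.955% of all 55681 probes holding at least 1 of them, and neither occurred on the opposite strand, where 0.392% and 0.621% of all probes held the reverse complements. A 60-base probe covers little of a transcript, and sites elsewhere in these mRNAs were not analysed here.

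All 6 arrays lay on 1 slide and were scanned together, with 28823 to 29800 of 59305 spots well above background and no saturated spot. Replicate arrays of a group correlated at 0.996 to 0.997 over the tested probes. The values are log2 signals after quantile normalization, and no level is set against that of another probe, since probes differ in brightness for the same amount of RNA. Differences are limma estimates from 1 fit to the 6 arrays together, which holds a block for the experiment, and adjusted p-values are by the Benjamini-Hochberg method over the 20168 probes tested. Having only 2 arrays in a group limits how precise any of these values can be. The 8 markers of pre-B cells, among them Cd79a and Vpreb1, were well above background on every array and none passed the threshold in miR-26a or sponge cells against control, so the label of the cells and these 8 markers did not conflict. Some myeloid and T cell markers, such as Csf3r and Cd4, were also well above background on every array and are given further below. The mature microRNA was not measured here, so the size of the overexpression and of the knockdown is not given by these data. Blnk, the gene of SLP-65 that the line lacks, had a bright probe in all groups (mean log2 signal 15.49 in control), but whether that probe lies outside the deleted stretch is not given in the sources used here, and it checks nothing.

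In cells overexpressing miR-26a, Irf4 and Bach2 fell and no other of the 10 factors passed the threshold. The Irf4 signal fell by 56.0%, while 1 of the 2 Bach2 probes fell by 26.6% and the other fell by 25.7%. Of the 18 tested probes, 3 were lower and 0 higher at an adjusted p under 0.05, where 5.14% of all tested probes were lower and 4.53% higher. These shares rest on 1036 and 913 probes, which became 147 and 66 without control replicate 1 and 163 and 70 without control replicate 2. At an unadjusted p under 0.05, 9 member probes were lower and 0 higher, beside 12.9% and 14.3% of all probes. The lower ones hold more than 1 probe each of Pax5, Bach2 and Foxp1, so member probes are not separate genes in these counts. The median log2 change was -0.21 over the 18 probes and 0.01 over all tested probes, and 13 of the 18 lay below 0, as did 47.1% of all probes. Every miR-26a array was below every control array for 7 member probes and above it for 1, and the corresponding shares of all probes are 22.8% and 26.5%. In RNA of whole cultures, fewer cells that express a gene and less RNA per cell cannot be told apart.

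**Figure D1:**
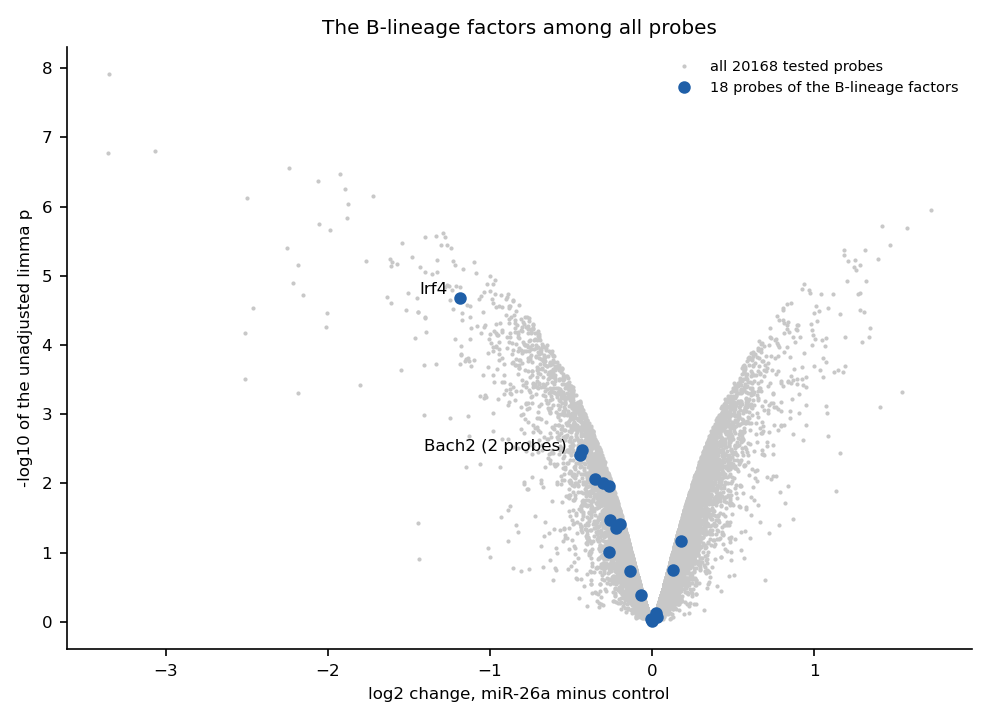
Each point is a probe; the horizontal axis is the log2 change of miR-26a minus control and the vertical axis is -log10 of the unadjusted limma p. The 18 probes of the B-lineage factors (blue) lie mostly left of 0, with Irf4 at -1.19 and the 2 Bach2 probes at -0.45 and -0.43, among 20168 tested probes (grey).

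Irf4, which raises light chain rearrangement in pre-B cells and later drives plasma cell differentiation, had 1 probe (A_55_P2109445, chr13:30858532-30858591, mm9, plus strand). Its log2 signal was 11.44 and 11.69 on the control arrays, 10.25 and 10.51 on the miR-26a arrays and 11.19 and 11.69 on the sponge arrays. Both miR-26a arrays lay below the 4 others, while the sponge arrays reached from below the control arrays to the level of the brighter control. Irf4 fell by 1.19 on the log2 scale with miR-26a (standard error 0.09, limma adjusted p = 0.00496), a 2.27-fold reduction, and the individual experiments gave -1.19 and -1.18. Against the sponge the change was -1.06 (adjusted p = 0.00368), and for sponge against control it was -0.13 (standard error 0.09, adjusted p = 0.514). Without the experiment as a block the adjusted p for miR-26a against control was 0.0572, and against the sponge 0.0444, so that the first call depends on the pairing by experiment, whereas with the block and any single array left out it was between 0.00525 and 0.04.

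Bach2 had 2 probes, A_55_P1956370 (chr4:32588782-32588841) and A_66_P114768 (chr4:32673009-32673068, both plus strand). The first gave log2 signals of 7.27 and 7.66 in control, 6.74 and 7.30 in miR-26a and 6.85 and 7.56 in sponge cells. The second gave 12.30 and 12.62 in control, 11.76 and 12.30 in miR-26a and 12.08 and 12.65 in sponge cells. The groups overlapped on the first probe, and on the second the brighter miR-26a array and the dimmer control array both read 12.30, but within each experiment the miR-26a array was the lower on both probes. The log2 change with miR-26a was -0.45 on the first probe (standard error 0.09, limma adjusted p = 0.0442) and -0.43 on the second (standard error 0.09, adjusted p = 0.041). The sponge changes were -0.26 (adjusted p = 0.282) and -0.09 (adjusted p = 0.625). Both Bach2 calls were lost without the block (adjusted p = 0.526 and 0.478) and when any 1 of the 6 arrays was left out (0.0586 to 0.275 and 0.0716 to 0.265), and with a single array left out only the Irf4 probe was called.

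**Figure D2:**
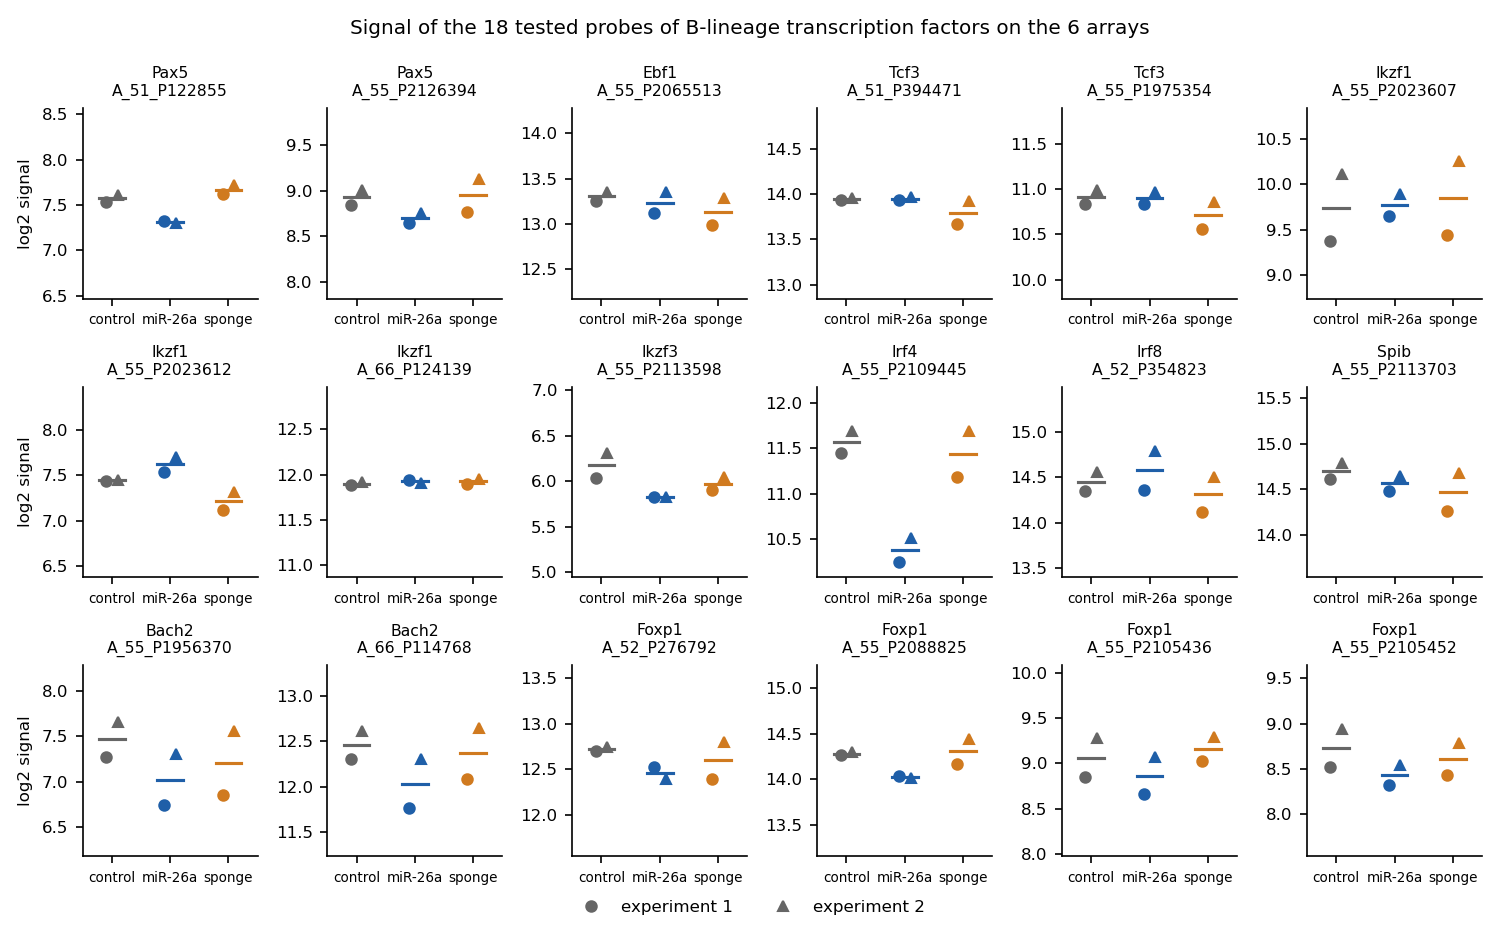
Each panel is 1 of the 18 tested probes; the vertical axis is the log2 signal with the same span of 2.1 in every panel, circles are experiment 1, triangles experiment 2, and bars the group means (2 arrays each). In the Irf4 panel the miR-26a arrays (10.25 and 10.51) lie below all others, and in most panels the experiment 2 arrays lie above those of experiment 1.

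The other interferon regulatory factor, Irf8, which acts with Irf4 at the pre-B stage, did not pass the threshold in either comparison with control. Its probe (A_52_P354823, chr8:123280324-123280383, plus strand) read 14.35 and 14.56 in control, 14.36 and 14.80 in miR-26a and 14.12 and 14.51 in sponge cells. The groups overlapped, and the log2 change with miR-26a was 0.13 (standard error 0.08, limma adjusted p = 0.388) and that with the sponge -0.14 (adjusted p = 0.445). Spib (A_55_P2113703, chr7:51781392-51781451, minus strand) read 14.62 and 14.78, 14.48 and 14.64, and 14.26 and 14.68 in the same order. Its changes were -0.14 with miR-26a (adjusted p = 0.402) and -0.23 with the sponge (adjusted p = 0.306), neither past the threshold, and all 3 groups overlapped.

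Pax5, which commits cells to the B lineage, had 2 probes, both from the coding part of its mRNA and each free of stop codons in at least 1 reading frame. The first is listed over 32555 bases of the minus strand and so crosses at least 1 intron. Their sequences are given so that the parts of the transcript they report on can be seen.
Pax5 A_51_P122855 (chr4:44550354-44582908): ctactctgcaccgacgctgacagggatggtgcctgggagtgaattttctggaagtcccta
Pax5 A_55_P2126394 (chr4:44658421-44658480): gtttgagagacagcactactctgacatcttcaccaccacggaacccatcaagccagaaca
The first probe read 7.53 and 7.61 in control, 7.32 and 7.30 in miR-26a and 7.62 and 7.72 in sponge cells, so that the arrays of the 3 groups did not overlap, with miR-26a lowest and sponge highest. The second read 8.85 and 9.01, 8.65 and 8.76, and 8.77 and 9.13, with the miR-26a arrays again below all control and sponge arrays. Against control the miR-26a changes of -0.26 (standard error 0.07) and -0.22 (standard error 0.09) did not pass the threshold (limma adjusted p = 0.0771 and 0.17). Between miR-26a and sponge the first probe was lower, at -0.36 (standard error 0.07, adjusted p = 0.0273), and the second gave -0.25 (adjusted p = 0.108). The call on the first probe was lost without the block (adjusted p = 0.0691) and when any array was left out (0.0509 to 0.121).

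Ebf1 and Tcf3, which act upstream of Pax5, moved little. Ebf1 (A_55_P2065513, chr11:44818438-44818497, plus strand) read 13.26 and 13.35 in control, 13.12 and 13.35 in miR-26a and 12.99 and 13.28 in sponge cells. Its log2 changes were -0.07 with miR-26a (standard error 0.08, limma adjusted p = 0.637) and -0.17 with the sponge (adjusted p = 0.353). The symbol Tcf3 is also an old name of Tcf7l1, but both probes carry coordinates of the E2A locus (chr10:79872639-79872698 for A_51_P394471 and chr10:79875963-79876022 for A_55_P1975354, minus strand). The first read 13.93 and 13.96 in both control and miR-26a cells and 13.67 and 13.92 in sponge cells, so that its miR-26a change was 0.00 with a standard error of 0.09 (adjusted p = 0.995). The second gave -0.01 with a standard error of 0.08 (adjusted p = 0.967), from 10.83 and 10.99 in control and 10.84 and 10.97 in miR-26a cells. On the sponge arrays the second probe read 10.56 and 10.86, a change of -0.20 (unadjusted p = 0.0417 and adjusted p = 0.296 from limma).

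The Ikaros family members gave mixed values. Ikzf3 (A_55_P2113598, chr11:98326176-98326235, minus strand) read 6.03 and 6.31 in control, 5.82 and 5.82 in miR-26a and 5.90 and 6.05 in sponge cells. The miR-26a arrays lay below all others, and the log2 change of -0.35 (standard error 0.09) did not pass the threshold (limma adjusted p = 0.0671). Ikzf1 had 3 probes on the plus strand of chromosome 11, from 11661344 to 11661403 (A_55_P2023607), 11669493 to 11669552 (A_55_P2023612) and 11672828 to 11672887 (A_66_P124139). The middle one, which moved most, reads through the coding sequence of the zinc fingers at the C-terminal end, by which members of the family dimerize.
Ikzf1 A_55_P2023612: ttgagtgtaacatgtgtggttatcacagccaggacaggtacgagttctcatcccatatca
This probe read 7.44 and 7.44 in control, 7.53 and 7.70 in miR-26a and 7.11 and 7.31 in sponge cells, with no overlap between any 2 groups. It was higher in miR-26a than in sponge cells by 0.41 (standard error 0.08, adjusted p = 0.0263), while the changes against control were 0.18 (adjusted p = 0.221) and -0.23 (adjusted p = 0.271). The call between miR-26a and sponge was lost without the block (adjusted p = 0.0914) and in 4 of the 6 fits that leave out 1 array, those without a miR-26a or a sponge array (0.0424 to 0.139 over all 6). The probe A_66_P124139 read between 11.89 and 11.95 on all 6 arrays and its difference between miR-26a and sponge was 0.00 (standard error 0.07). The probe A_55_P2023607 read 9.38 and 10.11 in control, 9.65 and 9.90 in miR-26a and 9.44 and 10.26 in sponge cells, and differed more between experiments than between groups. The 3 Ikzf1 probes thus gave different values for the same comparison, and the difference between probes was not tested.

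Foxp1 had 5 probes on the minus strand of chromosome 6, of which A_55_P2105446 (99102053 to 99102112) was well above background on only 1 array, sponge replicate 2, and was not tested. Its log2 signals of 3.03 and 3.44 in control, 1.63 and 3.03 in miR-26a and 2.81 and 3.85 in sponge cells lie about the limit of detection of these arrays, where the lowest probe well above background read 3.43 to 3.69. Another probe holds the end of the coding sequence, with the stop codon in capitals.
Foxp1 A_55_P2088825 (chr6:98880084-98880143): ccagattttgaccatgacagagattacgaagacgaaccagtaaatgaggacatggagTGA
This probe read 14.26 and 14.30 in control, 14.03 and 14.01 in miR-26a and 14.17 and 14.45 in sponge cells, and both miR-26a arrays were below the other 4. Its log2 change of -0.26 (standard error 0.09) had an unadjusted p of 0.0341 and an adjusted p of 0.147 (limma). The probe A_52_P276792, listed from 98885382 to 98889719 and thus across at least 1 intron, read 12.70 and 12.75, 12.52 and 12.39, and 12.39 and 12.80 in control, miR-26a and sponge cells. The probes A_55_P2105436 (98956679 to 98956738) and A_55_P2105452 (99112925 to 99112984) had overlapping control and miR-26a arrays. The 4 tested Foxp1 probes gave miR-26a changes of -0.20 to -0.30, all below 0, and adjusted p-values of 0.0732 to 0.272, so that none passed the threshold. With the sponge they gave -0.12 to 0.09.

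With the miR-26 sponge, none of the 18 probes passed the threshold in either direction (limma). The same fit called 0 probes lower and 2 higher among all 20168 (0% and 0.00992%). At an unadjusted p under 0.05, 4 member probes were lower, namely Bach2 A_55_P1956370, Ikzf1 A_55_P2023612, Spib and Tcf3 A_55_P1975354, and 0 were higher, beside 8.54% and 7.57% of all probes. The member median was -0.13 and that of all probes 0.01. Of the 18 probes 12 lay below 0, where 48.1% of all probes did, and the largest change in size was 0.26. Every sponge array was below every control array for 2 probes and above for 1, beside shares of 20% and 17.6%. The sponge and miR-26a comparisons share the 2 control arrays, so their values are only set side by side.

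**Figure D3:**
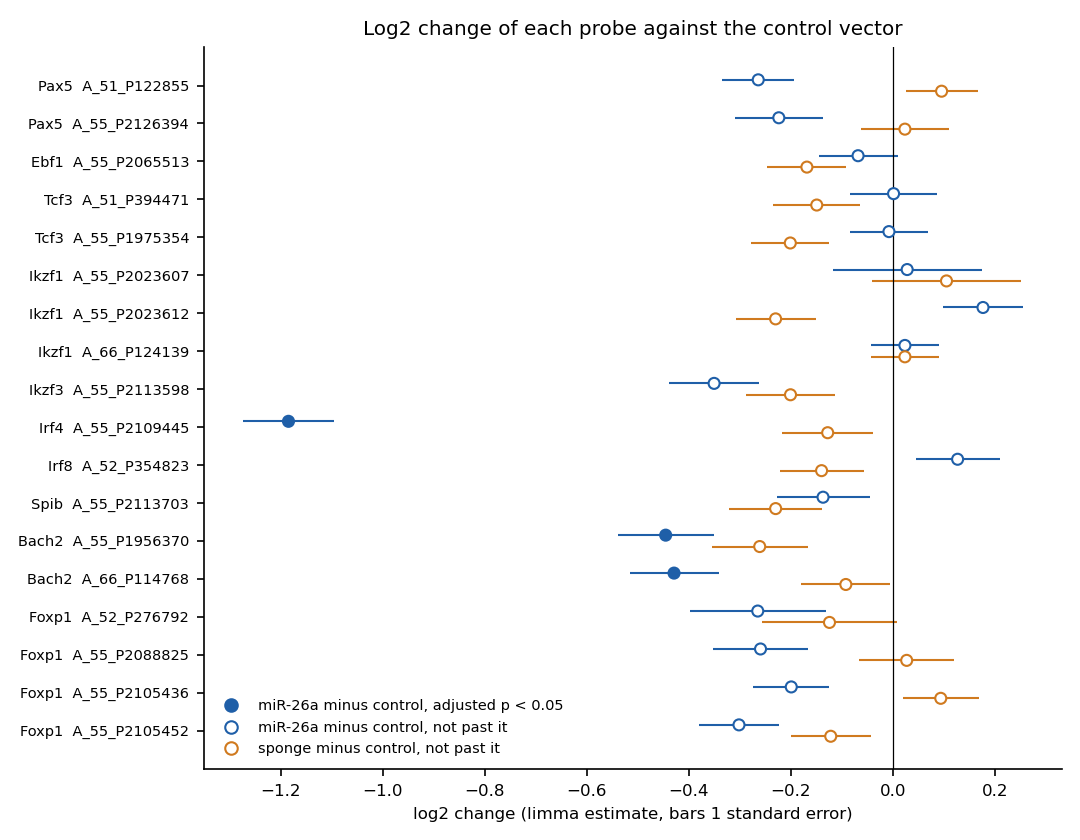
For each tested probe the horizontal axis gives the log2 change against the control vector, in blue for miR-26a and in orange for the sponge; bars are 1 standard error of the limma estimate and filled points have an adjusted p under 0.05. Irf4 (-1.19) and the 2 Bach2 probes (-0.45 and -0.43) are filled, and every sponge value lies within 0.26 of 0.

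Between miR-26a and sponge cells, 2 of the 18 probes were lower (Irf4 and Pax5 A_51_P122855) and 1 was higher (Ikzf1 A_55_P2023612), where 8.53% of all probes were lower and 8.15% higher. At an unadjusted p under 0.05 there were 6 lower and 3 higher, beside 16% and 18.5%. Of the 18 probes 11 lay below 0 (46.8% of all probes), and every miR-26a array was below every sponge array for 5 and above for 2 (23.1% and 27.7%). Close to the threshold were Bach2 A_66_P114768 at -0.34 (limma adjusted p = 0.0545) and Foxp1 A_55_P2105436 at -0.29 (adjusted p = 0.0516). Irf8 was at 0.27 (adjusted p = 0.0827).

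The 2 experiments also differed for these genes. Experiment 2 read higher than experiment 1 in all 3 groups for 14 of the 18 tested probes and lower in all 3 for 0, beside 23.9% and 27% of all tested probes. The mean difference was 0.55 and 0.47 on the log2 scale for the 2 Bach2 probes, 0.34 for Irf4 and 0.60 for Ikzf1 A_55_P2023607. For these Bach2 and Ikzf1 probes that is larger than the miR-26a changes of -0.45, -0.43 and 0.03. Each group has 1 array from each experiment, and the block in the fit takes this difference out.

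The same comparison was made for related factors and for known targets, each gene by its brightest probe. Among relatives of the 10 factors by family, such as other IRF, Id and E proteins, 1 of the 14 tested genes was lower with miR-26a and 1 higher, beside 5.14% and 4.53% of all probes. Irf5 was lower, with a log2 change of -0.39 (limma adjusted p = 0.0411). Id2, which binds E proteins such as the Tcf3 products and keeps them off DNA, read 9.45 and 9.51 in control and 10.14 and 10.60 in miR-26a cells, a rise of 0.89 (standard error 0.11, adjusted p = 0.0127), and 9.61 and 9.74 in sponge cells (change 0.19, adjusted p = 0.437). Of the other inhibitors of E proteins, Id3 was at -0.08 (adjusted p = 0.489). Id1 was well above background on all 6 arrays but too dim to be tested, and read 4.58 and 4.22 in control, 3.80 and 4.03 in miR-26a and 5.01 and 5.05 in sponge cells, so its miR-26a arrays lay below and its sponge arrays above the control arrays. The median of the 14 was 0.00. Without the block neither call held (limma adjusted p = 0.11 for Irf5 and 0.0661 for Id2). Irf5 was also lost when any 1 array was left out (0.0576 to 0.243), and Id2 when either control array was (0.00478 to 0.0819 over the 6 fits).

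Among 23 tested factors with other roles in the B lineage, 2 were lower and 1 higher, beside 5.14% and 4.53% of all probes, which is near that background. Klf2, a quiescence factor of lymphocytes, read 10.20 and 10.27 in control, 9.47 and 9.72 in miR-26a and 10.25 and 10.53 in sponge cells, and fell by 0.64 with miR-26a (standard error 0.08, limma adjusted p = 0.0127). Lef1, which acts in Wnt signalling and in pro-B cell proliferation, fell by 0.57 (adjusted p = 0.0104), from 14.91 and 14.90 to 14.35 and 14.31. Pou2f2 (Oct-2), an octamer-binding factor, rose by 0.53 (adjusted p = 0.0265). Foxo1, which drives Rag1 and Rag2 expression in pre-B cells, read -0.16 (adjusted p = 0.209), and the 23 genes had a median of -0.06. Without the block the Klf2 and Pou2f2 calls were lost (limma adjusted p = 0.0902 and 0.157) and that of Lef1 held (0.0342). None of the 3 held without either control array, and Pou2f2 also not without either miR-26a array (highest adjusted p 0.0971 for Klf2, 0.0954 for Lef1 and 0.182 for Pou2f2).

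Of 19 tested genes known to be activated by Pax5, Ebf1 or Tcf3 (E2A), 6 were lower and 1 higher with miR-26a, beside 5.14% and 4.53% of all probes, and the median was -0.19. This list was drawn up with the Rag2 result in these samples already known, so its count is not independent evidence of its direction. Rag2, which with Rag1 makes the V(D)J recombinase, read 9.37 and 9.34 in control, 6.05 and 5.95 in miR-26a and 9.32 and 9.59 in sponge cells, and fell by 3.36 with miR-26a (standard error 0.11, limma adjusted p = 0.00115). Rag1 read 9.39 and 9.70, 6.56 and 7.61, and 9.31 and 9.58, and fell by 2.46 (standard error 0.20, adjusted p = 0.0055). Dntt, the terminal transferase that adds bases at V(D)J joints, fell by 1.12 (adjusted p = 0.00547). The miR-26a arrays of all 3 recombination genes lay below every control and sponge array.

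Bst1, a surface enzyme of early B cells, fell by 1.33 (limma adjusted p = 0.00323), Fcrla, an Fc receptor-like protein, by 1.18 (adjusted p = 0.0103) and Blnk by 0.50 (adjusted p = 0.0267). Blnk is the gene of SLP-65 that the line lacks, so its fall, counted among the 6, cannot be read as that of an intact gene. Cr2, the complement receptor of mature B cells, read 8.17 and 8.34 in control and 9.34 and 9.54 in miR-26a cells and rose by 1.18 (adjusted p = 0.00311). The classic Pax5 and Ebf1 targets Cd79a (-0.18), Cd79b (-0.06), Vpreb1 (-0.01) and Igll1 (-0.03) did not pass the threshold, with adjusted p-values of 0.178 to 0.933. At an unadjusted limma p under 0.05, 10 of the 19 tested targets were lower, the 6 called ones and Cd79a among them, and 1 was higher. The corresponding shares of all probes were 12.9% and 14.3%. Without the block 4 of the 6 lower genes were called, and Blnk and Fcrla were not (limma adjusted p = 0.109 and 0.108). Blnk was also lost without either control or either miR-26a array (highest adjusted p 0.188), while Rag2, Rag1, Bst1, Fcrla, Dntt and Cr2 were called with any 1 array left out. Of 6 tested genes that Pax5 represses, among them Csf1r and Notch1, 0 were called in either direction by limma after adjustment, and 1 was lower and 1 higher at an unadjusted p under 0.05. With the sponge no gene of the 4 lists passed the threshold.

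**Figure D4:**
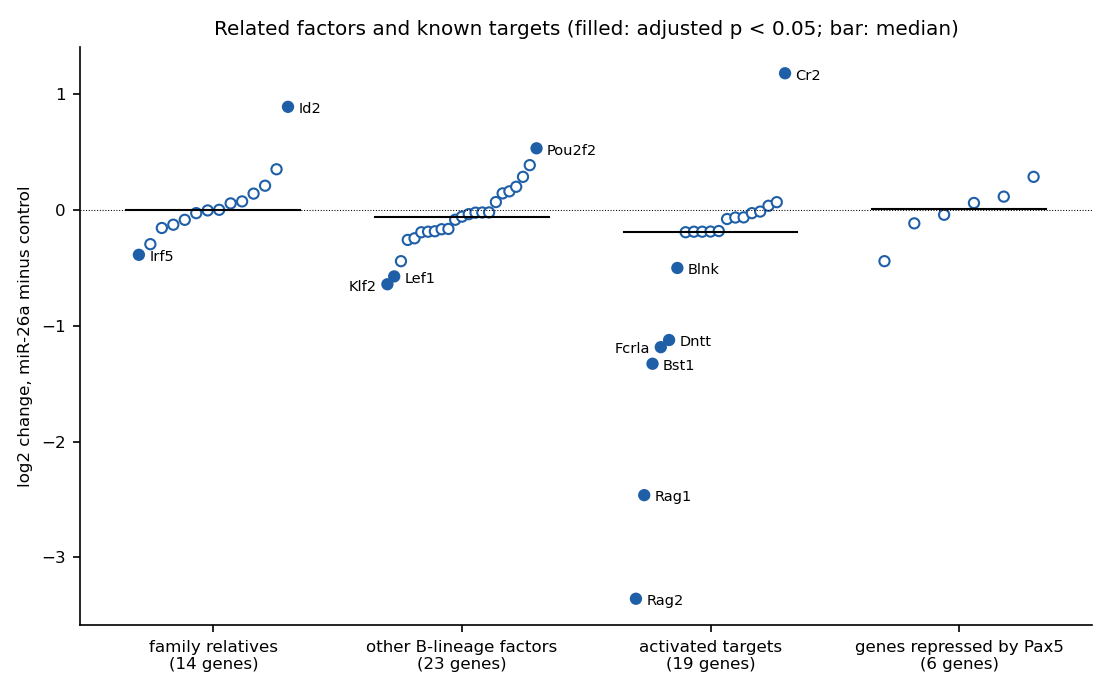
The vertical axis is the log2 change of miR-26a minus control for each tested gene of the 4 lists, points are genes ordered by value within a list, filled points have an adjusted p under 0.05 and the bars are list medians. Rag2 (-3.36) and Rag1 (-2.46) lie lowest and Cr2 (1.18) highest.

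Markers of other cell types were read beside these results. Of 10 myeloid markers 4 were tested and none was called, with Lyz2, Mpo, Cd14, Fcgr1 and Cebpa well above background on 0 or 1 of the 6 arrays. The tested ones, Csf3r (15.80 in control), Itgam (11.75), Elane (8.07) and Csf1r (8.06), were well above background on all arrays. Lyz1, well above background on 5 arrays and not tested, read 5.62 and 4.96 in control, 4.32 and 2.39 in miR-26a and 6.33 and 4.91 in sponge cells, with both miR-26a arrays below the others. The summed myeloid signal on the log2 scale was 15.76 to 16.04 in control, 15.83 to 15.97 in miR-26a and 15.72 to 16.14 in sponge cells, so the ranges overlapped. Of 8 T cell markers 4 were tested and 1 was lower, Cd5. Cd3e (9.05 in control), Cd4 (9.73) and Lck (10.18) passed the detection limit on all 6 arrays but were not called, Lck at a log2 change of -0.44 (unadjusted p = 0.0231 and adjusted p = 0.118 from limma). Cd3g and Cd8a were not well above background on any array, and the summed T cell signal was 11.32 to 11.41, 11.07 to 11.18 and 11.15 to 11.32 in the same order. Of the plasma cell markers 3 were tested (Sdc1, Prdm1 and Xbp1) and none was called, and their summed signal was 12.15 to 12.30, 12.37 to 12.60 and 12.17 to 12.51. Lyz1 and the T cell sum were lower, and the plasma cell sum higher, in both miR-26a arrays than in both control arrays. Of the 3 tested plasma cell markers, only Xbp1 was above 0 with miR-26a, at a log2 change of 0.29. Sdc1 was at -0.11 and Prdm1 at -0.06, so the higher sum is not a rise shared by these markers. The part of Lyz1 and of these sums in the changes of Irf4 and Bach2 was not tested.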

How the data were processed

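The authors deposited, for each of the 6 single-colour arrays, scanner output with the intensity of every spot (Agilent Feature Extraction, version 10.7.3.1 in the headers and 10.7.1.1 in the submitters' processing notes), and a table of quantile-normalized values from the Subio software that is on a linear intensity scale. From the deposited intensity values, background-subtracted processed signals were taken to log2, averaged over the spots of a probe (outlier spots left out unless all were flagged) and quantile-normalized. Probes with a signal over 50 on at least 4 arrays that were well above background on 1 or more were tested with limma 3.58.1 (R 4.3.3) in 1 fit of the 6 arrays that holds a block for the experiment. Replicate numbers in the labels stand for the experiment, to whose control the methods normalize. The labels of the controls also cite other sample records, so the controls may belong to an earlier series. Same-numbered arrays deviated together (correlations 0.38, 0.59 and 0.45). The p-values measure how group differences varied between experiments with independently generated cells, after the block took out the shift common to all groups. limma also draws the spread of each probe toward that of all tested probes.

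Members and lists were chosen with earlier results of these data known. Named genes are all member probes and, per list, up to 5 genes in each direction with an adjusted p under 0.05 in miR-26a against control and the same direction in both experiments. Blnk, sixth in its list, and genes that were not called were named after their values were seen. The array design gives the gene names and the coordinates (mm9). Exon annotation of that build was not used here. limma was run on simulated data with independent noise and known changes, which checks the code and not the calls made here. numpy 2.4.6, pandas 2.3.3 and matplotlib 3.10.9 were used for tables and plots. Alternatives were no block, 2 t-tests, 75th percentile scaling, normexp with an offset of 50, the authors' values, 3 filters, and leaving out each array. Some genes that the lists cover are not reported by name here.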

Additional observations from a re-analysis of the deposited data

How the results depend on the processing

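Under the fit without the experiment as a block, 0 of the 18 probes of the B-lineage factors were lower in miR-26a against control instead of 3, 1 instead of 2 was lower and 0 instead of 1 higher against the sponge, and among the lists the family relatives went from 1 lower and 1 higher to 0 and 0, the other B-lineage factors from 2 and 1 to 1 and 0, and the activated targets from 6 lower to 4. Over all tested probes, 240 were lower and 72 higher without the block, against 1036 and 913 with it. The unpaired t-test, the test of the log ratios against 0 and the fit without a filter called 0 member probes in every comparison. A figure legend of the study names an unpaired t-test but does not say whether it was used for the arrays. A filter on 2 arrays left 1 call in miR-26a against control, 75th percentile scaling gave 4 lower against the sponge, and normexp gave 2 higher against the sponge, 2 relatives, 3 other factors and 1 Pax5-repressed gene higher. With single arrays left out, miR-26a against control gave 1 to 1 lower member probe (Irf4), and miR-26a against sponge 1 to 1 lower and 0 to 1 higher. The same was done for the lists, an alternative chosen after seeing the data, and gave 0 to 0 lower and 0 to 1 higher for the relatives, 0 to 3 and 0 to 1 for the other factors, 5 to 6 and 1 to 1 for the activated targets, and 0 to 1 and 0 to 0 for the Pax5-repressed genes. The 0 calls for the sponge among the member probes stood in all alternatives, and the sponge comparison of the lists was not put through them. Over all tested probes, the 0 lower and 2 higher for the sponge became 5 and 7 with 75th percentile scaling. With normexp they became 23 and 10. The causes were not tested. The fit without a filter adjusts over 55681 probes and also estimates the shared spread from all of them, and these were not told apart. Some uncalled log2 changes near 0 turned sign. Against control, miR-26a gave -0.01868 for Tcf3 A_51_P394471 with normexp and 0.01814 for Tcf3 A_55_P1975354 with 75th percentile scaling. Ikzf1 A_66_P124139 gave -0.006827 for sponge against control with normexp and -0.04983 for miR-26a against sponge with 75th percentile scaling. With single arrays left out, miR-26a against control ranged from -0.05805 to 0.06089 and -0.05594 to 0.04068 for these Tcf3 probes, -0.01354 to 0.06087 for Ikzf1 A_66_P124139, -0.2363 to 0.2925 for Ikzf1 A_55_P2023607 and -0.1505 to 0.01411 for Ebf1. Sponge against control ranged from -0.1062 to 0.1605 for Foxp1 A_55_P2088825, -0.3475 to 0.09901 for Foxp1 A_52_P276792, -0.001002 to 0.04833 for Ikzf1 A_66_P124139, -0.06118 to 0.2717 for Ikzf1 A_55_P2023607, -0.2109 to 0.02655 for Bach2 A_66_P114768 and -0.09013 to 0.1375 for Pax5 A_55_P2126394. The difference between miR-26a and sponge ranged from -0.03766 to 0.2235 for Spib, -0.0372 to 0.03721 for Ikzf1 A_66_P124139, -0.3415 to 0.1873 for Ikzf1 A_55_P2023607 and -0.364 to 0.08258 for Foxp1 A_52_P276792.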

Other observations

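Cd5, a surface protein of T cells and of a subset of B cells, was the T cell marker called lower with miR-26a. It read 6.64 and 6.19 in control, 4.82 and 4.05 in miR-26a and 7.02 and 6.53 in sponge cells, and fell by 1.98 on the log2 scale (standard error 0.10, limma adjusted p = 0.00278).

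The probes of other genes whose signals over the 6 arrays were most like that of Irf4 were those of Zfp410, Acox3, 2410006H16Rik, Ankrd44 and Dclk2, with Pearson correlations of 0.997, 0.996, 0.996, 0.995 and 0.995. The 6 arrays share slide and experiments, and the 5 probes were picked for this likeness from all tested probes annotated with a gene name. The correlations are therefore a description. With miR-26a, Zfp410 read -0.70 on the log2 scale, Acox3 -0.67, 2410006H16Rik -0.67, Ankrd44 -0.22 and Dclk2 -0.55, all smaller in size than the Irf4 change of -1.19.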
